A study of Homo sapiens with 3 samples.

Results

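The chaperone genes of the CCT, HSP and DNAJ families were examined for binding of BMAL1 and MAX at their promoters. Members were the protein-coding genes whose symbol is TCP1 or runs from CCT2 to CCT8, or begins with HSPA, HSPB, HSPD, HSPE, HSPH, HSP90, DNAJA, DNAJB or DNAJC. This rule, which uses gene symbols and no measured value, found 85 of 20136 protein-coding genes, of which 9 belong to CCT, 31 to HSP and 45 to DNAJ. The 85 include 3 readthrough genes (DNAJC25-GNG10, HSPB2-C11orf52 and HSPE1-MOB4), which span a member and its neighbour. They also include HSPBP1, a nucleotide exchange factor of HSP70, and HSPBAP1, a partner of a small heat shock protein, which carry the letters of the small heat shock proteins without being among them.

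The study asked whether MAX, the dimerisation partner of MYC and MNT, occupies the sites of the clock factor BMAL1. Chromatin immunoprecipitation and sequencing (ChIP-seq) was done on near-confluent MDA-MB-231, an established line of triple-negative breast cancer, for which the labels give no silencing or drug. There were 3 groups of 1 library each, namely BMAL1 antibody, MAX antibody and input chromatin that served both as control. The BMAL1 list rested on 13866783 tags and held 756 peaks, and the MAX list rested on 11545865 tags and held 13650 peaks. The input had 29308882 tags. With 1 library per antibody no difference between conditions could be tested, and the counts of members with a peak or an element are set beside the share over all protein-coding genes.

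Chaperones help proteins to fold and keep unfolded chains from aggregating. The CCT genes encode the subunits of TRiC, a stacked-ring complex of the cytosol that folds actin and tubulin. The HSPA proteins (HSP70) bind exposed hydrophobic stretches in a cycle driven by ATP, the DNAJ proteins (HSP40) bring them clients and stimulate their ATPase, and HSP90 completes the maturation of kinases and receptors. HSPD1 and HSPE1 are the chaperonin and co-chaperonin of mitochondria, and the small HSPB proteins hold unfolded chains without ATP. MAX dimers and the BMAL1-CLOCK dimer both recognise the E-box, CACGTG.

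At 2 members BMAL1 and MAX were both found, and their sequences show what the peaks lie on. DNAJB9 encodes an HSP40 of the endoplasmic reticulum that acts on misfolded proteins, and HSPBAP1 has been described above. The runs below come from the plus strand of the reference genome (hg19, GRCh37), and capitals mark CACGTG. The DNAJB9 run is at chr7:108210233-108210286, between the start sites of DNAJB9 and its neighbours. The HSPBAP1 runs are at chr3:122512670-122512698, which overlaps the first exon, and at chr3:122512740-122512769, just upstream of it.
DNAJB9: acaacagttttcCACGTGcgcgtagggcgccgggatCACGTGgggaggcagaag
HSPBAP1 at the start site: ggctctCACGTGgaggtCACGTGacggat
HSPBAP1 upstream: tggaaatacaaaCACGTGgtctgagttgtg

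The DNAJB9 promoter held 2 E-boxes with 18 bases between them, and the MAX and BMAL1 summits lay 4 bp apart on the first of them. Fold enrichment, the pileup of fragments at the summit over the background, was 31.2 for MAX from a pileup of 40 fragments. This was the highest MAX value of any member, with a 95% interval of 22.3 to 42.5 (exact Poisson interval of the pileup, counting error only). For BMAL1 the fold enrichment was 8.44 from a pileup of 13, with an interval of 4.49 to 14.4 and a -log10 p-value of 8.93 as the peak caller gave it. The BMAL1 peak (chr7:108210158-108210465) lay wholly within the MAX peak, its 308 bp being shared, and its summit was 62 bp upstream of the nearest transcription start site (TSS). The start sites of PNPLA8 and THAP5, on the opposite strand, lay within 1 kb of the same peaks, so the peaks cannot be given to DNAJB9 alone.

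HSPBAP1 carried 3 E-boxes, 5 bases between the first and second and 59 bases between the second and the last. The BMAL1 peak (chr3:122512494-122512917) had a fold enrichment of 9.64 from a pileup of 26 (interval 6.30 to 14.1), a -log10 p-value of 17.5 and a summit 31 bp downstream of the start site. The MAX peak had a fold enrichment of 18.9 from a pileup of 38 (13.4 to 26.0). Its summit fell 82 bp upstream, 3 bp from the last E-box, so that the summits of BMAL1 and MAX were 113 bp apart although the peaks shared 424 bp. At both genes the BMAL1 value was below the median of 11.3 over all genes with a BMAL1 promoter peak.

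These were the only members with a BMAL1 promoter peak, meaning a summit within 1 kb of any TSS of the gene. The count of 2 of 85 (2.35%) was near the background of 1.85%, or 372 of 20136 genes. It divided into 0 of 9 CCT genes, 1 of 31 HSP genes and 1 of 45 DNAJ genes. Both BMAL1 peaks held CACGTG in the 200 bp centred on the summit, as did 78.5% of all BMAL1 promoter peaks.

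MAX was found at many more members. A MAX promoter peak was listed for 59 of 85 members (69.4%), against a background of 36.3% (7308 of 20136 genes). All 9 CCT genes had one, as had 22 of 31 HSP genes (71.0%) and 28 of 45 DNAJ genes (62.2%). With the distance to a TSS limited to 300 bp, the counts were 9 of 9, 16 of 31 and 24 of 45, beside 29.1% of all genes, and with 5 kb they were 9, 22 and 29, beside 41.6%. The lower limit removed 6 HSP genes and 4 DNAJ genes and no CCT gene.

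**Figure D1:**
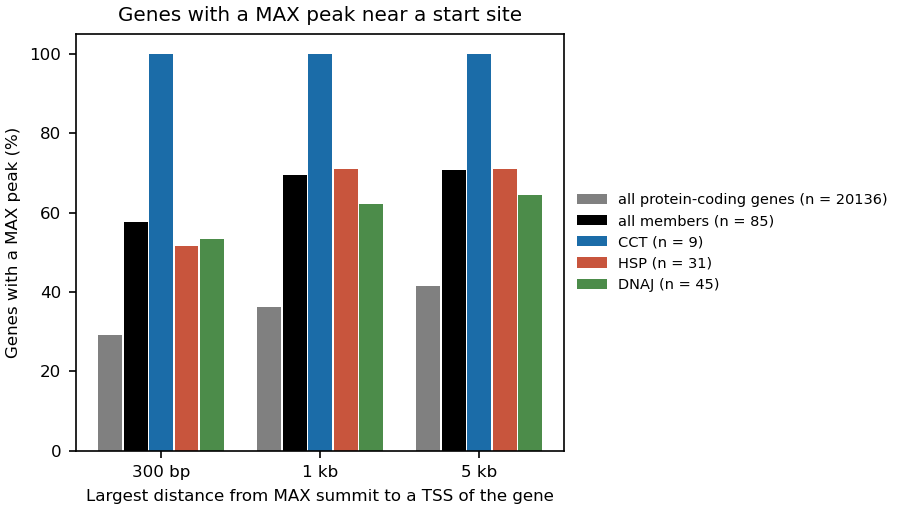
Bars give the share of genes, in percent from 0, with a MAX summit within 300 bp, 1 kb or 5 kb of a TSS, for all protein-coding genes (grey), all 85 members (black) and each family. The CCT bar stands at 100% at every distance, and the HSP and DNAJ bars lie between it and the grey bar.

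Members have more annotated start sites than other genes, with a median of 6 against 5, and more start sites give more chances for a peak to lie near one. With 1 TSS per gene, 54 members (63.5%) had a MAX peak beside 32% of all genes. DNAJB1, DNAJB4, DNAJC17, HSPA12A and HSPB8 lost theirs, because their peaks lay at alternative start sites. For DNAJB1, a co-chaperone of HSP70 in the heat shock response, the summit was 11041 bp from the main start site and beside that of TECR. For HSPB8, a small heat shock protein of the autophagy pathway, it was 1988 bp away.

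All subunits of TRiC had MAX at their promoters, at values from 6.97 to 19.0 with a median of 14.8, beside a median of 10.8 over all genes with a MAX promoter peak. CCT8 was highest with a fold enrichment of 19.0 (pileup 30, interval 12.9 to 27.2), the summit lying 3 bp from the start site. CCT3 had 18.3 (pileup 36) and CCT4 had 17.4 from a pileup of 48, the highest pileup of any member. CCT2 had 15.6 (pileup 20) and CCT6A 14.8 (pileup 19). The intervals of these 5 genes overlapped, so their order is not resolved by counting error.

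TCP1, the alpha subunit, carried a peak of 12.8 at 14 bp upstream of 1 annotated start site (chr6:160210735). A second peak of 10.2 lay in an exon, 229 bp upstream of a different, alternative start site (chr6:160209900). The main start site (chr6:160210634) lies between the 2 summits, so the second is downstream of it. CCT5 had 11.2 from a pileup of 22. CCT6B, a form of the zeta subunit known from testis, had 12.5 in an intron, 610 bp downstream of an alternative start site. LIG3 also has a start site within 1 kb of that summit. The peak near the main start site of CCT6B was weaker, at 8.46. CCT7 was the lowest CCT gene, and it had 3 separate peaks with values of 6.97, 6.60 and 6.44. Its pileups of 28, 26 and 33 were not low. Its input background of 3.94 to 5.12 was above the median background of 1.77 over the member peaks, so the fold enrichment was low where the input was high.

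Distances were taken from the summit of the strongest peak of each gene to the nearest of its annotated start sites. The median was 79 bp for CCT, 136 bp for HSP, 153 bp for DNAJ and 118 bp over all genes. Of the 9, 6 had the summit downstream of the start site and 3 upstream. Among the 28 DNAJ genes 20 were upstream and 8 downstream, and among the HSP genes 11 were on either side. Over all genes with a MAX promoter peak 62.7% had the summit upstream and 36.4% downstream, beside 71.4% and 28.6% of the DNAJ genes. Distances and sides depend on the annotation, as CCT genes have from 4 (CCT4) to 15 (CCT3) start sites, beside a median of 5 over all genes. With 1 TSS per gene the median distance was 204 bp for members and 183 bp over all genes. The families were not compared in that way.

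**Figure D2:**
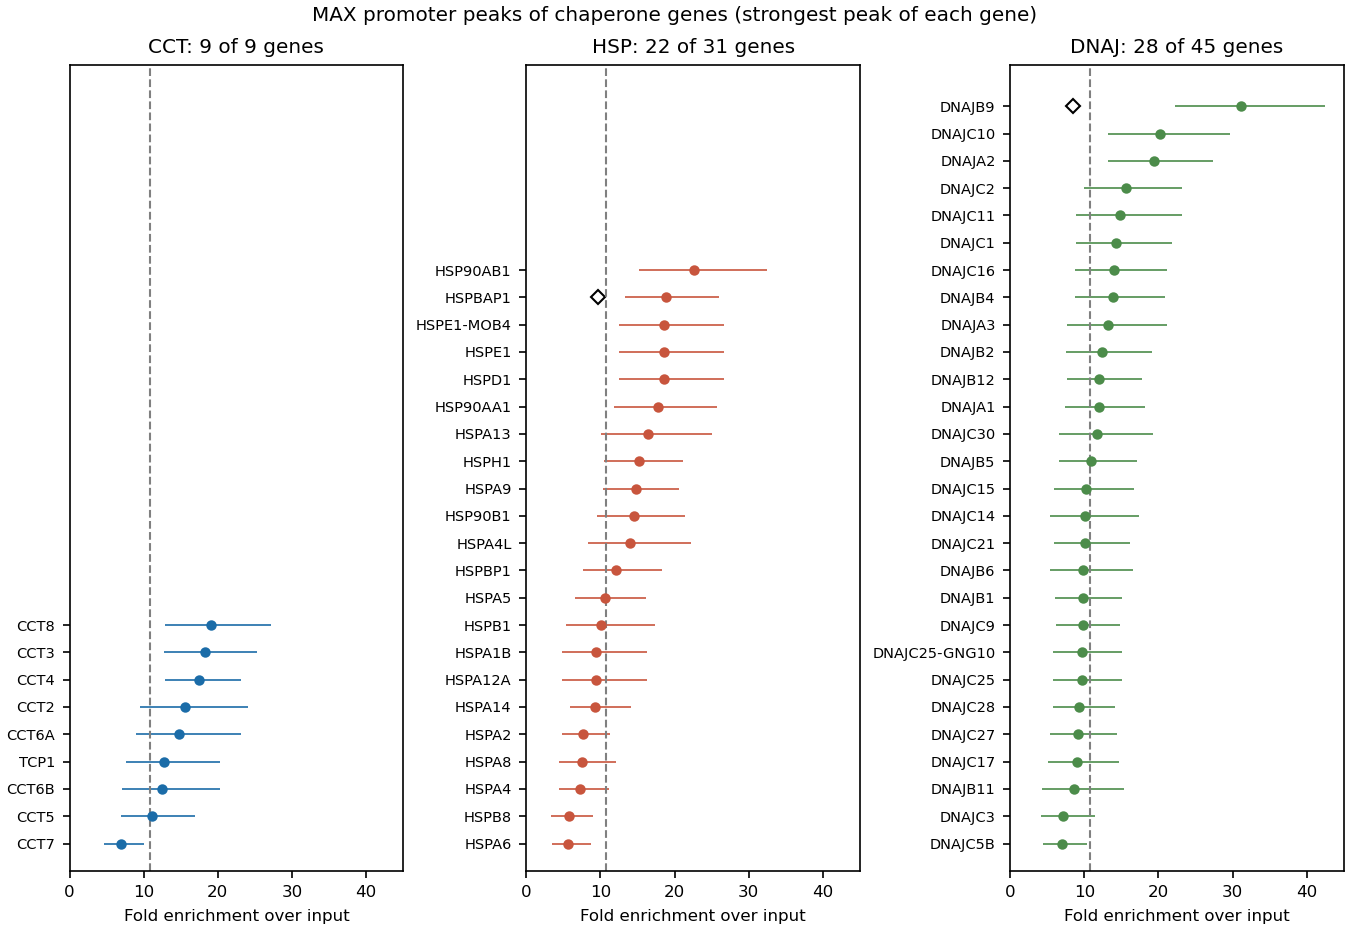
Points give the MAX fold enrichment over input of the strongest promoter peak of each of the 59 members that have one, by family, with the exact Poisson 95% interval of the pileup (counting error of 1 library). Open diamonds are the 2 BMAL1 peaks and the dashed line is the median of 10.8 over all genes with a MAX promoter peak, which the intervals of 43 members include.

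The 3 HSP90 genes all had MAX. HSP90AB1, the constitutive cytosolic form, had the second highest value of all members at 22.6 (pileup 29, interval 15.1 to 32.5), with the summit 375 bp inside the gene in an intron and 1 bp from an E-box. HSP90AA1, the inducible cytosolic form, had 17.8 from a pileup of 28 at the start site of a long isoform, which it shares with WDR20, and weaker peaks of 8.46 and 7.25. The peak of 8.46 lay 661 bp upstream of the main start site. HSP90B1, the HSP90 of the endoplasmic reticulum (GRP94), had 2 peaks of 14.6 and 13.4, each with an E-box within 33 bp of the summit.

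HSPD1 and HSPE1 are transcribed away from each other, and 1 MAX peak covered both start sites. It spanned 1663 bp (chr2:198363588-198365250), with a fold enrichment of 18.6 (pileup 29, interval 12.5 to 26.7). Its summit (chr2:198364847) was 1 bp from the nearest annotated start site of HSPD1 and 17 bp upstream of the nearest of HSPE1, both alternative ones. The main start sites of HSPD1 (chr2:198364564) and HSPE1 (chr2:198365103) lay further off, on either side of the summit. The same peak was counted for HSPE1-MOB4. HSPD1 had a second peak of 8.34 at a distant start site near MOB4. HSPH1 (HSP110), an exchange factor of HSP70, had 15.1 from a pileup of 34, with an E-box 17 bp from the summit.

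Of the 14 HSPA genes 11 had a MAX peak, with a median of 9.35. The highest were HSPA13, a divergent HSP70 of microsomes, at 16.4 (pileup 21), HSPA9, the mitochondrial HSP70 mortalin, at 14.8 (pileup 35), and HSPA4L, an HSP110 relative, at 14.0 (pileup 18). The pileup of HSPA9 was far above that of HSPA13 although its fold enrichment was lower, as its background was 2.36 against 1.28. HSPA12B, HSPA1A and HSPA1L had none.

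HSPA1A and HSPA1B encode almost the same inducible HSP70, and reads that match both copies cannot be placed with certainty. From 250 bp before to 50 bp after the start site the copies were 92.7% identical, and over the first 1000 bases 85.3% without gaps. The HSPA1B peak, with a fold enrichment of 9.35 and a pileup of 12, lay 643 bp upstream. In 200 bases at that summit the best ungapped match to HSPA1A was 30.0% identical, so the peak lay outside the near-identical part. How multiply mapped reads were treated is not given in the sources used here, and the near-identical promoters are uncertain.

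HSPB was the subfamily with the smallest share, with 4 of 10 genes (40.0%), near the background. The values were 18.9 for HSPBAP1, 12.2 for HSPBP1, 10.1 for HSPB1 (HSP27) and 5.71 for HSPB8. Thus 2 of the 4 were small heat shock proteins proper. HSPB2, HSPB2-C11orf52, HSPB3, HSPB6, HSPB7 and HSPB9 had no MAX promoter peak, and most of these are known from muscle, heart or testis. CCT6B, also known from testis, and DNAJB2, a neuronal co-chaperone, had one. The part of expression was not tested.

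In the DNAJ family the share was 3 of 4 for DNAJA, 8 of 12 for DNAJB (66.7%) and 17 of 29 for DNAJC (58.6%). DNAJA2 and DNAJA1, the canonical cytosolic co-chaperones of HSP70, had fold enrichments of 19.3 (pileup 32) and 11.9 (pileup 21), and DNAJA3, the mitochondrial form, had 13.3 (pileup 17). In DNAJB the highest after DNAJB9 were DNAJB4 with 13.9 (pileup 23) and DNAJB2, a neuronal co-chaperone, with 12.4 (pileup 20). In DNAJC they were DNAJC10, a disulfide reductase of the endoplasmic reticulum, with 20.3 (pileup 26), DNAJC2, a ribosome-bound co-chaperone, with 15.6 (pileup 24), and DNAJC11, a mitochondrial protein, with 14.8 (pileup 19).

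The 17 DNAJ genes without a MAX promoter peak were DNAJA4, DNAJB7, DNAJB8, DNAJB13, DNAJB14, DNAJC4, DNAJC5, DNAJC5G, DNAJC6, DNAJC7, DNAJC8, DNAJC12, DNAJC13, DNAJC18, DNAJC19, DNAJC22 and DNAJC24. Several are known mainly from testis (DNAJB7, DNAJB8, DNAJB13) or neurons (DNAJC5, the cysteine string protein, and DNAJC6, auxilin). Others are expressed broadly, such as DNAJC7 and DNAJC8. Expression was not measured in these files, and its part in the presence of a peak was not tested.

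The limit of 1 kb divided the members with few borderline cases. Just inside it were DNAJC5B at 861 bp (fold enrichment 6.95), HSPA4 at 737 bp, HSPA1B at 643 bp and HSPA5 at 578 bp. Just outside were DNAJB14, whose nearest MAX summit was 2874 bp upstream (10.9), and DNAJB7 at 5706 bp. Of the 26 members without a MAX promoter peak, 1 had a summit within 5000 bp, 7 within 10000 bp and 18 within 50000 bp, and the furthest was DNAJC19 at 1384872 bp.

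The strength of the peaks was compared by gene and by peak. The median fold enrichment of the strongest peak was 14.8 for CCT, 13.1 for HSP and 10.6 for DNAJ, beside 10.8 over all genes. The HSP median depended on how peaks were counted. With the peak shared by HSPD1, HSPE1 and HSPE1-MOB4 counted once among the strongest peaks, it was 11.4 over 20 peaks. When each of the 26 distinct HSP peaks was counted once, weaker second peaks included, its ratio to the median of all distinct promoter peaks was 0.96, where it was 1.21 by gene. The corresponding ratios were 1.23 and 1.37 for CCT and 1.01 and 0.98 for DNAJ.

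The intervals of 12 of 59 members (20.3%) lay wholly above the median of all genes, as did 14.3% over all genes with a MAX promoter peak. These were 3 CCT genes (CCT3, CCT4, CCT8), 6 HSP genes (HSP90AA1, HSP90AB1, HSPBAP1, HSPD1, HSPE1, HSPE1-MOB4) and 3 DNAJ genes (DNAJA2, DNAJB9, DNAJC10). Of these HSP genes 3 share 1 peak. The intervals of 4 members (6.78%), CCT7, HSPA6, HSPB8 and DNAJC5B, lay wholly below it, beside 7.47% over all genes. The interval of DNAJB9 was above those of 42 of the 59 members and overlapped those of the others, HSP90AB1, DNAJC10, DNAJA2 and CCT8 among them. Over the 68 distinct member peaks the pileup ran from 11 to 48 fragments with a median of 20.5, so that a typical value rests on few fragments.

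**Figure D3:**
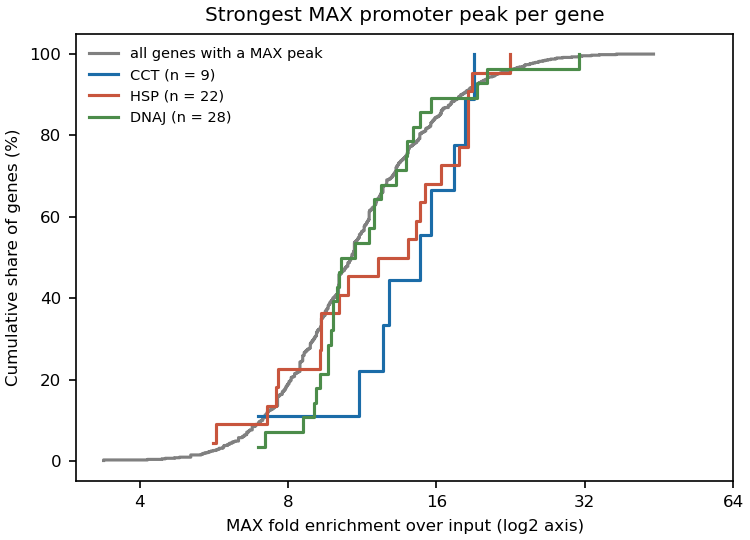
Curves give the cumulative share of genes, in percent, up to each MAX fold enrichment over input (log2 axis) for the strongest promoter peak of each gene. The DNAJ curve runs close to the grey curve of all genes, and the CCT curve, with 9 genes, lies to its right from a value of 11.2 to one of 17.4.

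The E-box was about as frequent at member peaks as at MAX promoter peaks of all genes. CACGTG stood in the 200 bp centred on the summit in 15 of 68 distinct member MAX peaks (22.1%), beside a background of 20.5% (1492 of 7284 promoter peaks). The families divided as 2 of 13 peaks for CCT, 9 of 26 for HSP (34.6%) and 4 of 29 for DNAJ (13.8%). The variant CACGCG (on either strand) was present in 14 peaks (20.6%) beside 18.7%, namely in 4 CCT, 3 HSP and 7 DNAJ peaks. Both strands were searched, and matches to the E-box and to the variant were counted separately, so a peak that holds both is in both counts.

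Peaks with CACGTG had the higher median, here as over the MAX promoter peaks of all genes. Their median fold enrichment was 12.5 in 15 member peaks and 12.5 in the 1492 peaks of all genes, and without it the medians were 10.1 and 9.76. The ranges overlapped, from 5.71 to 31.2 with CACGTG and from 5.44 to 20.3 without. Among the CCT genes only TCP1 and CCT6B had CACGTG at a summit, that of CCT6B being at the peak near LIG3. The runs below show both forms of the element. They hold each CACGTG within 33 bp of a member MAX summit that was not printed above, and CCT8 and DNAJC11 as examples of the variant, chosen after their values were seen. They are from the plus strand of hg19, with both forms in capitals on either strand.
HSP90AB1 (chr6:44215195-44215224, intron): ggctggcagctgCACGTGgtggccgcgcgg
TCP1 (chr6:160210119-160210148, exon): aggcgtggcccgCACGTGcgagcccgggag
CCT6B (chr17:33307447-33307504, intron): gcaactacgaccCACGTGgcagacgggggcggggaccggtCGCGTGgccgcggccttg
CCT8 (chr21:30445922-30445951, exon): caggaagcagttCACGCGaccgctcggaag
HSPB8 (chr12:119618719-119618748, intron): acacgctggggcCACGTGctgatgacaggg
DNAJC1 (chr10:22292882-22292911, upstream): tctggaacgcccCACGTGgacttcccctga
HSPH1 (chr13:31736128-31736157, exon): caccggcccctcCACGTGccacttccgctt
HSP90B1 (chr12:104323928-104323957, exon): aaggggcggtccCACGTGtgaggggcccgc
HSP90B1 (chr12:104324983-104325012, intron): gcctgcgcgcaaCACGTGtgggtgtagaag
DNAJC11 (chr1:6762059-6762126, upstream): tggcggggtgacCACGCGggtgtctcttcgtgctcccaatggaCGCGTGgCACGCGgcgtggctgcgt

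The DNAJC11 run held 3 copies of CACGCG and no CACGTG, and its peak had a fold enrichment of 14.8. In TCP1 the E-box lay 2 bp from the summit of the weaker peak, and the stronger peak had none. In HSP90AB1 the sequence CACGTG was 1 bp from a summit with a fold enrichment of 22.6, and in HSPB8 it was 7 bp from one of 5.71. The next highest peaks after DNAJB9 and HSP90AB1, those of DNAJC10, DNAJA2 and CCT8, had no CACGTG at the summit, although those of DNAJC10 and CCT8 held 1 CACGCG.

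**Figure D4:**
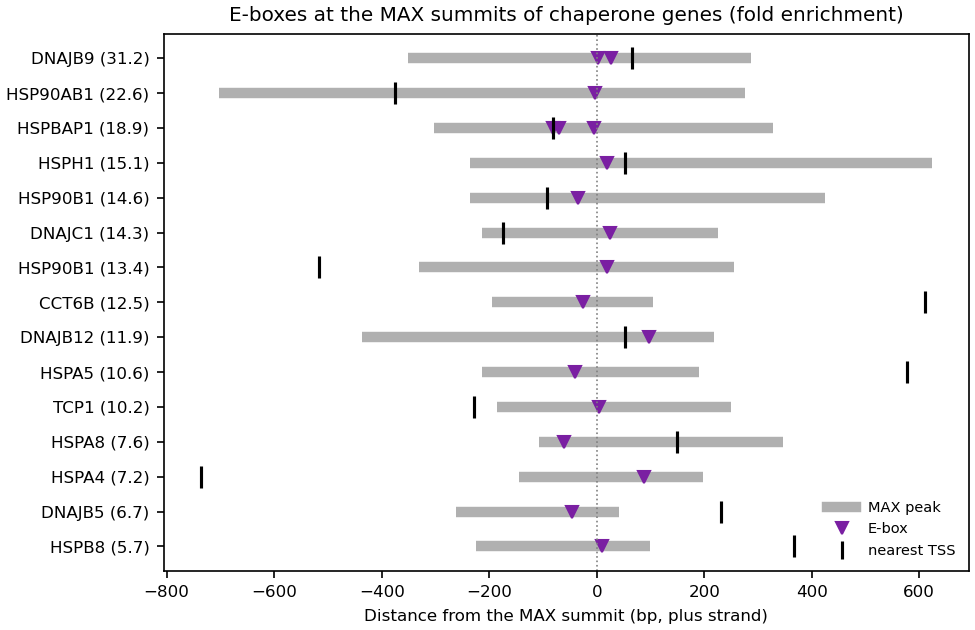
Each line is 1 of the 15 member MAX peaks with an E-box (CACGTG) in 200 bp at the summit, ordered by fold enrichment, which is given beside the gene. Grey bars span the peak, triangles mark the E-boxes and black ticks the nearest TSS, in bp from the summit. DNAJB9 and HSPBAP1 are the peaks with more than 1 E-box, and in HSPA4, HSPA5, HSPB8, CCT6B, DNAJB5, TCP1 and the weaker HSP90B1 peak the start site lies outside the bar.

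An E-box in the promoter sequence did not always come with a peak. In the 250 bp before to 50 bp after the main start site, CACGTG was present in 11 of 85 members (12.9%) and in 8.74% of all genes. Of the 11, 9 had a MAX promoter peak. DNAJC8, with 2 copies, and DNAJC12 had the E-box and no MAX peak. Over all genes with CACGTG in the promoter 53.7% had one. In HSPE1 the promoter E-box lay 234 bp from the summit of the peak shared with HSPD1, and in HSPA9 it lay 431 bp away.

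The promoters of members were mostly CpG-rich, here an observed over expected CpG ratio of at least 0.6 and a GC content of at least 50% in the 1000 bp centred on the main start site. This held for 69 of 85 members (81.2%) and 64.4% of all genes. Of the CpG-rich members 55 of 69 (79.7%) had a MAX peak, against a background of 49.8% (6462 of 12973 genes). By family these were 9 of 9 for CCT, 21 of 24 for HSP (87.5%) and 25 of 36 for DNAJ (69.4%). Of the 16 members that were not CpG-rich 4 (25%) had a MAX peak, beside 11.8% of all such genes. Of these, DNAJB4 and HSPB8 had their strongest peak 25497 and 1988 bp from the main start site, where CpG content was scored. The HSPB subfamily was the poorest in CpG, with 4 of 10 CpG-rich promoters, 3 of them with a MAX peak.

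The median CpG ratio was 0.82 for the members with a MAX peak, 0.63 for those without and 0.72 over all genes, while the GC content was alike at 63.0%, 62.4% and 61.3%. CpG content thus moved with the presence of a peak, and its part in the higher share of members was not tested beyond the counts within each class.

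Many member peaks lay near the start sites of more than 1 gene. Of the 68 distinct member MAX peaks 27 (39.7%) had the TSS of 2 or more protein-coding genes within 1 kb of the summit, against a background of 17.9% (1305 of 7284). These were 9 of 13 CCT peaks, 6 of 26 HSP peaks and 12 of 29 DNAJ peaks. A peak of this kind cannot be given to one gene. A coding gene with a start site on the opposite strand within 1 kb was found for 33 of 85 members (38.8%) and 17.6% of all genes.

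Among the CCT genes 7 of 9 had such a partner, namely TSACC for CCT3, COMMD1 for CCT4, ATPSCKMT for CCT5, PSPH for CCT6A, LIG3 and ZNF830 for CCT6B, PRADC1 for CCT7 and MRPL18 for TCP1. CCT2 and CCT8 had none and yet were among the higher peaks. Over all genes, 62.3% of those with an opposite partner and 30.7% of the others had a MAX peak. In the members the shares were 69.7% and 69.2%. By family they were 50.0% and 84.2% for HSP, and 71.4% and 58.1% for DNAJ.

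**Figure D5:**
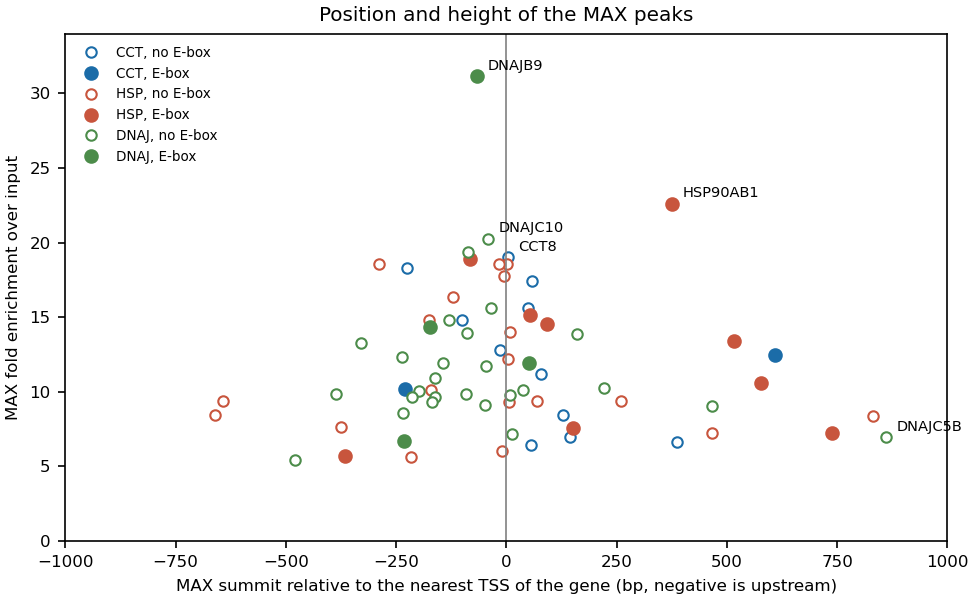
Points are MAX promoter peaks of members, by the distance of the summit from the nearest TSS of the gene in bp (negative is upstream) and by fold enrichment over input. A peak shared by 2 or more members is drawn for each of them. Filled points hold an E-box (CACGTG) at the summit and open points do not, and the filled points include DNAJB9 and HSP90AB1 at the top as well as HSPB8 at 5.71 and DNAJB5 at 6.68.

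The members were also grouped by compartment. The list for the endoplasmic reticulum held HSPA5, HSPA13, HSP90B1, DNAJB9, DNAJB11, DNAJC1, DNAJC3, DNAJC10, DNAJC16 and DNAJC25, and it was drawn up with earlier results of these data known. All 10 had MAX, beside 36.3% of all genes and 49.8% of those with a CpG-rich promoter, which all 10 have. The list was not a full inventory of this compartment, so the share holds for the listed genes only. It left out DNAJB14, DNAJC18 and HYOU1, which had no MAX promoter peak, and DNAJB12 and SIL1, which had one. Their median was 14.1, with values from 7.19 for DNAJC3 to 31.2 for DNAJB9. Of their 11 distinct peaks 5 held CACGTG at the summit, beside 20.5% of all MAX promoter peaks. BiP (HSPA5), the HSP70 of this compartment, had a peak of 10.6 in the coding sequence 578 bp downstream of the start site, with an E-box 37 bp from the summit. Of 8 genes listed as mitochondrial, again not a full inventory, 7 were found under the listed symbol, all with a CpG-rich promoter. The other, DNAJC20, is annotated as HSCB, which had a MAX peak of 9.35. It is counted below with the other genes of the chaperone system. Of the 7 genes found 6 had MAX, beside 36.3% of all genes, with a median of 14.8 and values from 10.3 to 18.6. None of their 6 peaks held CACGTG at the summit, and 2 held CACGCG. DNAJC19 was the listed gene without a peak.

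The list of heat-inducible genes held HSPA1A, HSPA1B, HSPA6, HSPA8, HSPB1, HSPD1, HSPE1, HSPH1, HSP90AA1, DNAJA1 and DNAJB1. Of these 11 genes 10 had MAX, with a median of 11.03, HSPA1A being the exception. HSPA8, which is a constitutive HSP70, is counted among the 10. All 11 promoters were CpG-rich, and MAX was at 49.8% of such genes and 36.3% of all genes. The peak of DNAJB1 lay 11041 bp from its main start site. The heat shock element, searched as GAANNTTC, which reads the same on both strands, was in the promoters of 10 of these 11 genes, 19 of 85 members (22.4%) and 5.53% of all genes. It was in the 200 bp at the summit of 9 of 68 member MAX peaks (13.2%) and 3.36% of all MAX promoter peaks. Of the 19 members with the element in the promoter 13 (68.4%) had a MAX promoter peak, near the 69.4% of all members, and over all genes with the element the share was 28.8%. The 9 peaks with it at the summit were 5 HSP, 2 CCT and 2 DNAJ peaks. In HSPA8, the constitutive HSP70, a copy lay at the summit of the weaker peak (6.03). The distance was 5 bp in HSPB1, 8 bp in DNAJB4, 9 bp in CCT4, 28 bp in HSPH1, 36 bp in HSPA6, 43 bp in HSPD1, 46 bp in DNAJA1 and 86 bp in CCT2. The runs of 4 HSP genes, chosen after their values were seen, follow from the plus strand of hg19, with the element in capitals.
HSPA8 (chr11:122933056-122933085): gcagcgttctgGAACTTTCaagctcgcccc
HSPB1 (chr7:75931797-75931826): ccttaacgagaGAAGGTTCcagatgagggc
HSPH1 (chr13:31736077-31736106): cgcactgatcaGAACTTTCcagaatctgcg
HSPD1 (chr2:198364786-198364815): gctcggttccaGAACTTTCcagaaaatgcc

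In HSPH1 the heat shock element and the E-box were both within 28 bp of 1 MAX summit. The endoplasmic reticulum stress element, searched as CCAAT and CCACG with 9 bases between them, was found in the promoters of HSPA5 and HSP90B1, 2 of only 21 genes (0.104%) in the annotation. In HSP90B1 a copy was 16 bp from the summit of the stronger MAX peak, and in HSPA5 it was 627 bp away. A match is a description of the letters and not evidence that the factor was bound.

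The other genes of the chaperone system were taken from a list of 34 co-chaperones, exchange factors, prefoldin subunits and heat shock factors. Of these 26 (76.5%) had a MAX promoter peak, beside 36.3% of all genes, with a median of 10.1. The highest were SUGT1, a co-chaperone of HSP90, at 19.0, BAG1, an exchange factor of HSP70, at 15.2, and BAG6 and SIL1 at 14.8 each. Those without one included BAG3, TRAP1, HYOU1, UNC45A, PFDN1, PFDN5 and VBP1. BMAL1 was found at 2 of the 34 (5.88%), beside 1.85% of all genes, namely at HSF2, a heat shock factor, with a fold enrichment of 14.7 from a pileup of 25, and at PFDN2, a prefoldin subunit, with 9.30 from a pileup of 22. Both also had MAX, at 10.2 and 7.62.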

How the data were processed

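Peak lists from MDA-MB-231 cells were used, with 1 library for BMAL1, 1 for MAX and 1 input. Reads were mapped by the authors to hg19 (BWA 0.6.2), and peaks were called per antibody against the input with MACS2 2.0.9. The deposited lists give each peak's position and summit, a pileup signal (fragments extended and counted at the summit), its fold enrichment, and the -log10 of the p-value and q-value. Fold enrichment is a ratio to local background in the input, but not below a floor. For MAX the floor was 1.28, the level expected from tags and genome size. It applied to 17 of 68 member peaks (25%), beside 17.3% of all MAX promoter peaks. The strongest peaks of DNAJB9, HSP90AB1 and DNAJC10 were at this floor. Per the file headers the p-value cutoff was 1e-05, while the methods state a stricter one, and all listed peaks were used. At most 2 tags (BMAL1) or 1 tag (MAX) were kept at a position, and the depth was 13866783, 11545865 and 29308882 tags for BMAL1, MAX and input. Weaker peaks need more depth, so a gene without a listed peak had none past the cutoff at this depth.

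A peak was assigned to each protein-coding gene of GENCODE release 44 (mapped to GRCh37) with a TSS within 1 kb of its summit, and the highest fold enrichment represents the gene. Intervals (95%, exact Poisson) cover counting error only. Elements were read from the GRCh37 reference. The steps were tested on simulated data. Genes named were all CCT, HSP90, HSPD, HSPE and HSPH members, those with BMAL1, the 3 highest of the other subfamilies and those beside the 1 kb limit. Others named with values appear as members of a list, at the edge of a count, or for a sequence element, and were chosen after their values were seen. The members and the lists were chosen with earlier results of these data known. With no replicates, no test was made. The alternatives covered the window, the TSS set, the p-value threshold, the measure of enrichment, the E-box definition, the overlap rule and the CpG limits. The rpm signal, silencing and expression experiments were not analysed here. Tables were handled with pandas 2.3.3 and numpy 2.4.6 in Python 3.11.15, intervals with scipy 1.17.1, sequence with pysam 0.24.0, and plots with matplotlib 3.10.9.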

Additional observations from a re-analysis of the deposited data

How the results depend on the processing

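Of 96 recomputed values 88 stayed within 1.5 times the reported count or kept their level, and 8 moved. The number of members with a MAX promoter peak ran from 46 (-log10 p-value of at least 12) to 60 (5 kb), while the share of all genes ran from 23.5% to 41.6%, and all 9 CCT genes had one under every setting. The BMAL1 count of 2 members fell to 1 with a -log10 p-value of at least 12, where DNAJ had 0, and to 1 without the readthrough genes, HSPBP1 and HSPBAP1, where HSP had 0, since HSPBAP1 itself was removed. Member peaks shared by both factors fell from 2 to 1 when summits had to lie within 100 bp, and to 1 at a -log10 p-value of at least 12. Counting the variant CACGCG, on either strand, along with the E-box gave 27 member peaks in place of 15, beside 36.3% of all MAX promoter peaks. With 1 TSS per gene the median distance of member summits was 204 bp in place of 131 bp, because alternative start sites were no longer used. Over all genes with a MAX promoter peak it moved alike, to 183 bp in place of 118 bp. With CpG limits of 0.75 and 55% GC, 88.9% of CpG-rich members had MAX, beside 51.2% of such genes. No paired analysis was possible because each group holds 1 library. Depth limits weak peaks, with a median pileup of 20.5 fragments in member peaks, and no value has a replicate check.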

Other observations

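Away from promoters, BMAL1 summits came near few members. The nearest outside 1 kb was that of DNAJA3, the mitochondrial DNAJ protein, at -9013 bp from a start site (negative is upstream) with a fold enrichment of 8.88, and that of CCT5 followed at -14453 bp with 7.98. These genes were chosen after their values were seen.

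Of the 68 distinct member MAX peaks, 24 had the summit in an exon outside the coding sequence, 16 in an intron, 5 in coding sequence and 23 outside the gene. More than 1 MAX promoter peak was listed for 10 of 59 members (16.9%), beside 16.4% of all genes with one, and these were 3 of 9 CCT genes, 5 of 22 HSP genes and 2 of 28 DNAJ genes. The median length of the member peaks was 540 bp, and 481 bp over all MAX promoter peaks.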
